A study of Arabidopsis thaliana with 4 samples.

Results

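The 10 genes described here are BZIP60 and 9 genes for proteins that fold or supply the endoplasmic reticulum (ER) of Arabidopsis thaliana. They were taken by their locus codes from a table of 33602 genes, and all 10 were found. By role they are the transcription factor BZIP60 (AT1G42990), the lumenal HSP70 proteins BIP1 (AT5G28540), BIP2 (AT5G42020) and BIP3 (AT1G09080), the BiP partner ERDJ3A (AT3G08970), SDF2 (AT2G25110), the calreticulins CRT1A (AT1G56340) and CRT1B (AT1G09210), and the nucleotide sugar transporters UTR1 (AT2G02810) and UTR3 (AT1G14360). RNA came from excised root tips, 3 mm long, of 5-day-old wild-type Col-0 seedlings. The seedlings had been moved to half-strength Murashige and Skoog plates with 0.5 µM narciclasine or without it, and were kept there for 2 h or 12 h. Narciclasine is an alkaloid of daffodils and their relatives that inhibits protein synthesis at the large ribosomal subunit. Each of the 4 groups (control 2 h, narciclasine 2 h, control 12 h, narciclasine 12 h) was 1 library. Differences between single libraries have no replicate check, and no test between conditions was made.

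Secreted and membrane proteins enter the ER through the translocon and fold there with the help of chaperones. BiP, an HSP70 protein, binds unfolded chains and is driven by J-domain partners such as the ERdj3 proteins, whereas calnexin and calreticulin bind glycoproteins that carry a terminal glucose. When unfolded proteins accumulate, the membrane sensor IRE1 splices BZIP60 mRNA, and the shorter product enters the nucleus. In a parallel branch the membrane-bound factor BZIP28 is released by proteases in the Golgi. Both factors then activate BiP and other folding genes, a programme called the unfolded protein response. Root tips divide and secrete wall material, which puts a steady load on the ER. A value for the whole BZIP60 gene counts spliced and unspliced mRNA together, so the splicing that marks activation cannot be read from it.

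The measure of level is RPKM, reads per kilobase of gene per 1e6 reads, which allows genes to be compared within a library. Differences between libraries are ratios of reads recovered from those values and scaled by the trimmed mean of M values (TMM). Parentheses after a fold hold its 95% counting interval, and that interval covers counting error only. A gene was called higher or lower when it differed by at least 2-fold and that interval excluded 1. Genes entered the counts when they reached 1 CPM (reads scaled to library size) in at least 1 library, which 9 of the 10 did; BIP3 did not. Library sizes recovered from the values ran from 11880278 reads in control 12 h to 14724075 in narciclasine 12 h. All 11 root tip markers examined, among them WOX5 and PLT1 of the meristem and SCR of the endodermis, were above 0 in all 4 libraries. Between the controls WOX5 (10.11-fold), the root cap factor FEZ (3.02-fold) and PLT2 (2.07-fold) were lower at 12 h by at least 2-fold, and 7 of the 11 were lower by that much in narciclasine 12 h than in narciclasine 2 h. Over all genes, 1.68% were called lower at 12 h between the controls and 15.9% between the narciclasine libraries. Against the control of the same time, WOX5 was 2.58-fold lower at 2 h, and at 12 h PLT2 was 2.06-fold higher and the root hair genes COBL9 and EXPA7 were 3.28-fold and 2.55-fold lower. The summed RPKM of the 11, most of it from CASP1 and EXPA7, was 718, 770, 733 and 400 in control 2 h, narciclasine 2 h, control 12 h and narciclasine 12 h. Summed RPKM of 4 shoot markers, genes of photosynthesis, was 18.1, 11.2, 47.4 and 8.999 in the same order, with LHCB2.1 at 0 in narciclasine 12 h. With narciclasine, LHCB1.3 was 2.27-fold lower at 2 h, and at 12 h LHCB1.3, RBCS1A and RCA were 9.81-fold, 9.13-fold and 3.76-fold lower. In root tips, fewer cells of a type and less RNA per cell cannot be told apart, and the part of tissue composition in the ratios below was not tested.

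BZIP60 and the folding genes lay on opposite sides of the controls in the 2 h libraries. In narciclasine 2 h against control 2 h, BZIP60 was called higher and 8 other genes were called lower, which accounts for all 9 compared. Over all 19373 genes compared, 4.74% were called higher and 2.06% lower. The median log2 ratio was -1.67 over the 9 genes and -0.003 over all genes. At 12 h, BZIP60 was again called higher and 6 genes were called lower, whereas BIP1 and ERDJ3A were not called. Over all 19376 genes in that comparison, 11.6% were called higher and 16.5% lower, and the medians were -1.46 for the 9 genes and -0.04 for all genes. Called in both narciclasine comparisons were BZIP60, higher, and BIP2, SDF2, CRT1A, CRT1B, UTR1 and UTR3, lower, beside 1.94% of all genes called higher and 0.929% called lower in both. Both narciclasine libraries lay below both control libraries for 7 of the 10 genes and above them for BZIP60, while the groups overlapped for BIP3 and ERDJ3A. Over all 19377 genes, 18.9% had both narciclasine libraries below both controls and 25.6% had both above.

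**Figure D1:**
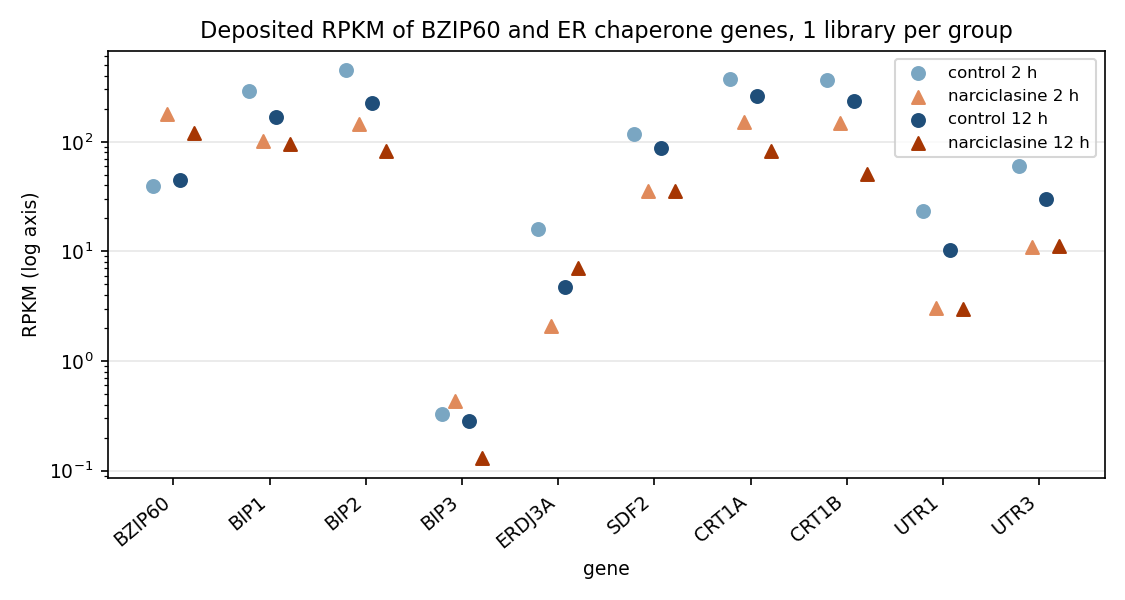
Deposited RPKM (log axis) of the 10 genes in the 4 libraries, with circles for controls and triangles for narciclasine, lighter at 2 h and darker at 12 h. BZIP60 has its triangles at 179 and 121 above its circles at 39.4 and 44.99, and 7 genes have both triangles below both circles.

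BZIP60 encodes a basic leucine zipper factor, anchored in the ER membrane when made from unspliced mRNA. Its level was 39.4 RPKM in control 2 h, 179 in narciclasine 2 h, 44.99 in control 12 h and 121 in narciclasine 12 h, from 631, 2811, 589 and 1958 reads. Both narciclasine libraries were therefore high and both controls low, with no overlap. Ranked by RPKM among all genes of each library, BZIP60 stood at 3655, 715, 3178 and 1129, and of the 10 genes it was the highest in both narciclasine libraries. It was 4.43-fold higher at 2 h (4.06 to 4.84) and 2.60-fold higher at 12 h (2.37 to 2.85). Between the controls it differed by 1.17-fold (1.05 to 1.32), and from narciclasine 2 h to narciclasine 12 h it was 1.46-fold lower (1.37 to 1.54). The window around its annotated start, 250 bases before to 50 after, is shown because BZIP60 was the 1 gene of the 10 called higher with narciclasine. It lies at chr1:16137414-16137713 (minus strand) and, as for every window below, was read from the RefSeq genome of build TAIR10.1, with matched motifs in capitals. The capitals mark a G-box (CACGTG), a core bound by basic leucine zipper factors in plants, from -153 to -148 relative to the start.
BZIP60: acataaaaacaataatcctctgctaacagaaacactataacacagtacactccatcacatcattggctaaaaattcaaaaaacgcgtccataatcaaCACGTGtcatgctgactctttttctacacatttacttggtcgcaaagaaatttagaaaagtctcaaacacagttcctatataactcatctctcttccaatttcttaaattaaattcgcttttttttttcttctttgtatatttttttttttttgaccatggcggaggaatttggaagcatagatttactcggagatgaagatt

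BIP1 and BIP2 encode the near-identical main BiP proteins. BIP1 was at 291 RPKM in control 2 h, 102 in narciclasine 2 h, 168 in control 12 h and 95.3 in narciclasine 12 h. BIP2 was at 450.2, 145, 225 and 82.3 RPKM in the same libraries. For both genes control 2 h was highest, control 12 h came next and both narciclasine libraries were lowest. Among all genes, BIP2 ranked 219 in control 2 h, 920 in narciclasine 2 h, 574 in control 12 h and 1755 in narciclasine 12 h. At 2 h BIP1 was 2.94-fold lower with narciclasine (2.82 to 3.05) and BIP2 3.19-fold lower (3.08 to 3.29). At 12 h BIP2 was 2.83-fold lower (2.70 to 2.96) and BIP1 1.82-fold lower (1.74 to 1.91), which was under the 2-fold threshold.

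The split of reads between BIP1 and BIP2 is uncertain. Their annotated coding sequences are 96.8% identical, with 64 mismatches and a longest identical stretch of 323 bases, and how reads matching both were treated is not given in the sources used here. Summed over both genes, the reads were 3.08-fold lower at 2 h (3.01 to 3.16) and 2.28-fold lower at 12 h (2.21 to 2.36), past the threshold at both times. Within a library, BIP2 was at 1.55 times the RPKM of BIP1 in control 2 h, 1.43 times in narciclasine 2 h, 1.34 times in control 12 h and 0.864 times in narciclasine 12 h. BIP2 thus exceeded BIP1 in 3 libraries and was below it in narciclasine 12 h. The ratio of BZIP60 to BIP2 within a library was 0.0875 in control 2 h, 1.24 in narciclasine 2 h, 0.200 in control 12 h and 1.47 in narciclasine 12 h. BZIP60 exceeded BIP2 per length in both narciclasine libraries and was below it in both controls.

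The windows of the pair are shown because their coding sequences are near-identical. BIP1 lies at chr5:10543509-10543808 and BIP2 at chr5:16810644-16810943, both on the minus strand. In BIP2 the capitals join 2 overlapping matches. They are the ER stress element II, ERSE-II (ATTGG, any 1 base, CCACG), from 21 to 31 after the start, and the core of the unfolded protein response element, UPRE (TGACGTGG, here on the opposite strand), from 27 to 34. The BIP1 window held none of the 5 motifs searched. Its last bases, cgaagtaacca, also stand in the BIP2 window, before the capitals. The windows are thus offset against each other, and the bases of BIP1 beyond its window were not searched.
BIP1: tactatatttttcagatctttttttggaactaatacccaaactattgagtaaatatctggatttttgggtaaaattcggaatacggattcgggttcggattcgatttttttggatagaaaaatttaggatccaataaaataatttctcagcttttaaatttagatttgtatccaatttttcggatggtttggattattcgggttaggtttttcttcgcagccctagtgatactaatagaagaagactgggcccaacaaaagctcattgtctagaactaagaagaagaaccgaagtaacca
BIP2: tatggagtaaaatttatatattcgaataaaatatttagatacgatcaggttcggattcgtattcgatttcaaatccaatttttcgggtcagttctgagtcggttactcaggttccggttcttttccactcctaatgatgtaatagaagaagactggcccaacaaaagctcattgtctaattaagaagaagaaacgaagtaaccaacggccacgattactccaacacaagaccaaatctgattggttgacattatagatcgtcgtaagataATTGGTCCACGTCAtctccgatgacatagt

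BIP3 is the BiP gene known for being nearly silent without ER stress and strongly induced by it. It was at 0.327 RPKM in control 2 h, 0.434 in narciclasine 2 h, 0.280 in control 12 h and 0.129 in narciclasine 12 h, from 10, 13, 7 and 4 reads. The groups overlapped and all 4 libraries stayed under 1 CPM. The ratio with narciclasine was 1.29 at 2 h (0.524 to 3.30) and 0.446 at 12 h (0.0958 to 1.75), so at this depth no difference from the control of the same time was detectable. Between the narciclasine libraries BIP3 was 3.29-fold lower at 12 h (1.02 to 13.9), on 4 reads against 13. Known for strong induction, BIP3 did not exceed 13 reads in any library.

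ERDJ3A, also called TMS1, encodes an ER J-domain protein that works with BiP and is needed for pollen tubes at high temperature. It was at 16.0 RPKM in control 2 h, 2.103 in narciclasine 2 h, 4.71 in control 12 h and 7.07 in narciclasine 12 h, from 474, 61, 114 and 212 reads. Narciclasine 2 h was the lowest library and narciclasine 12 h lay between the 2 controls. At 2 h it was 7.81-fold lower with narciclasine (5.97 to 10.4), the largest ratio of the 10 genes, beside 7.73-fold for UTR1 with an overlapping interval. At 12 h it was 1.45-fold higher (1.15 to 1.84), under the threshold. The controls themselves differed by 3.31-fold, lower at 12 h (2.69 to 4.09), and against control 12 h the narciclasine 2 h library was 2.36-fold lower (1.72 to 3.28). A gene on the opposite strand, AT3G08960, overlaps 60 annotated bases of ERDJ3A. That gene stayed between 14.7 and 16.7 RPKM in the 4 libraries.

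SDF2 encodes a lumenal protein that joins ERdj3B and BiP in Arabidopsis and takes part in the folding of a plasma membrane immune receptor. It was at 117 RPKM in control 2 h, 35.7 in narciclasine 2 h, 87.8 in control 12 h and 35.2 in narciclasine 12 h. Both narciclasine libraries were low and nearly equal, with a ratio of 1.00 between them (0.897 to 1.12). SDF2 was 3.35-fold lower with narciclasine at 2 h (3.06 to 3.68) and 2.58-fold lower at 12 h (2.34 to 2.84). The controls differed by 1.29-fold (1.21 to 1.39).

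CRT1A and CRT1B encode calreticulins, calcium-binding lectins of the ER lumen. CRT1A was at 370.2 RPKM in control 2 h, 152 in narciclasine 2 h, 262 in control 12 h and 83.0 in narciclasine 12 h. CRT1B was at 364, 148, 235 and 50.6 RPKM in the same order. Both genes were lowest in narciclasine 12 h, and neither had overlapping groups. At 2 h the intervals of the pair overlapped, with CRT1A 2.50-fold lower (2.40 to 2.61) and CRT1B 2.53-fold lower (2.43 to 2.63). At 12 h CRT1B was 4.80-fold lower (4.52 to 5.11) and CRT1A 3.27-fold lower (3.09 to 3.45), and these intervals do not overlap. CRT1B also had the larger gap between the narciclasine libraries, 2.87-fold lower at 12 h than at 2 h (2.69 to 3.06), against 1.79-fold for CRT1A (1.69 to 1.90).

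The ratio of CRT1A to CRT1B within a library was 1.02 in control 2 h, 1.03 in narciclasine 2 h, 1.12 in control 12 h and 1.64 in narciclasine 12 h. Their coding sequences are 84.4% identical with a longest identical stretch of 52 bases. The window of CRT1A is shown because it held more matches than any other of the 10, whereas that of CRT1B held none. It lies at chr1:21092660-21092959 on the minus strand. Its capitals mark a G-box from -159 to -154, UPRE cores on the opposite strand from -98 to -91 and from -16 to -9, and an ER stress element, ERSE (CCAAT, any 10 bases, CACG), on the opposite strand from -68 to -50. The ERSE appears as its outer letters.
CRT1A: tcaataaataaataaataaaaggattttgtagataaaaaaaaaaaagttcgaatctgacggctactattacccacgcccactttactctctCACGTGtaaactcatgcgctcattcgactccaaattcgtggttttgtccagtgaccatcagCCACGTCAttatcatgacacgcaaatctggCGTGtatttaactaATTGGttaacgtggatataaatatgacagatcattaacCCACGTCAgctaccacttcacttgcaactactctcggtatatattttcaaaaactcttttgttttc

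UTR1 and UTR3 encode transporters that bring UDP-glucose into the ER lumen, where a glucosyltransferase uses it to mark unfolded glycoproteins for calnexin and calreticulin. UTR1 was at 23.1 RPKM in control 2 h, 3.07 in narciclasine 2 h, 10.4 in control 12 h and 2.97 in narciclasine 12 h, from 423, 55, 155 and 55 reads. UTR3 was at 59.7, 10.9, 30.0 and 11.3 RPKM in the same order. For each gene the narciclasine libraries were alike and below both controls. UTR1 was 7.73-fold lower at 2 h (5.83 to 10.4) and 3.61-fold lower at 12 h (2.64 to 5.00). UTR3 was 5.63-fold lower at 2 h (4.86 to 6.54) and 2.74-fold lower at 12 h (2.34 to 3.22). The controls differed between the times. UTR1 was 2.17-fold lower in control 12 h than in control 2 h (1.80 to 2.63) and UTR3 1.93-fold lower (1.74 to 2.15). Between the narciclasine libraries the ratios were 0.986 for UTR1 (0.666 to 1.46) and 1.06 for UTR3 (0.876 to 1.28).

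The window of UTR3, at chr1:4913118-4913417 on the minus strand, is shown because its ERSE and G-box overlap near the start. The ERSE runs from -48 to -30 and the G-box from -33 to -28, so that they share the letters CACG. FLP, on the opposite strand, overlaps 76 annotated bases of UTR3 and stayed between 4.41 and 8.26 RPKM.
UTR3: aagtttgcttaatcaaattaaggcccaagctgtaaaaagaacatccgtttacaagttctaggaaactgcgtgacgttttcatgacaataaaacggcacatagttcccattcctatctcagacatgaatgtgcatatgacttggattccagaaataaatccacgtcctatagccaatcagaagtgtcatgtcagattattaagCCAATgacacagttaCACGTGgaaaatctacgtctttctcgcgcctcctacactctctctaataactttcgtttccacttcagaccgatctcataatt

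**Figure D2:**
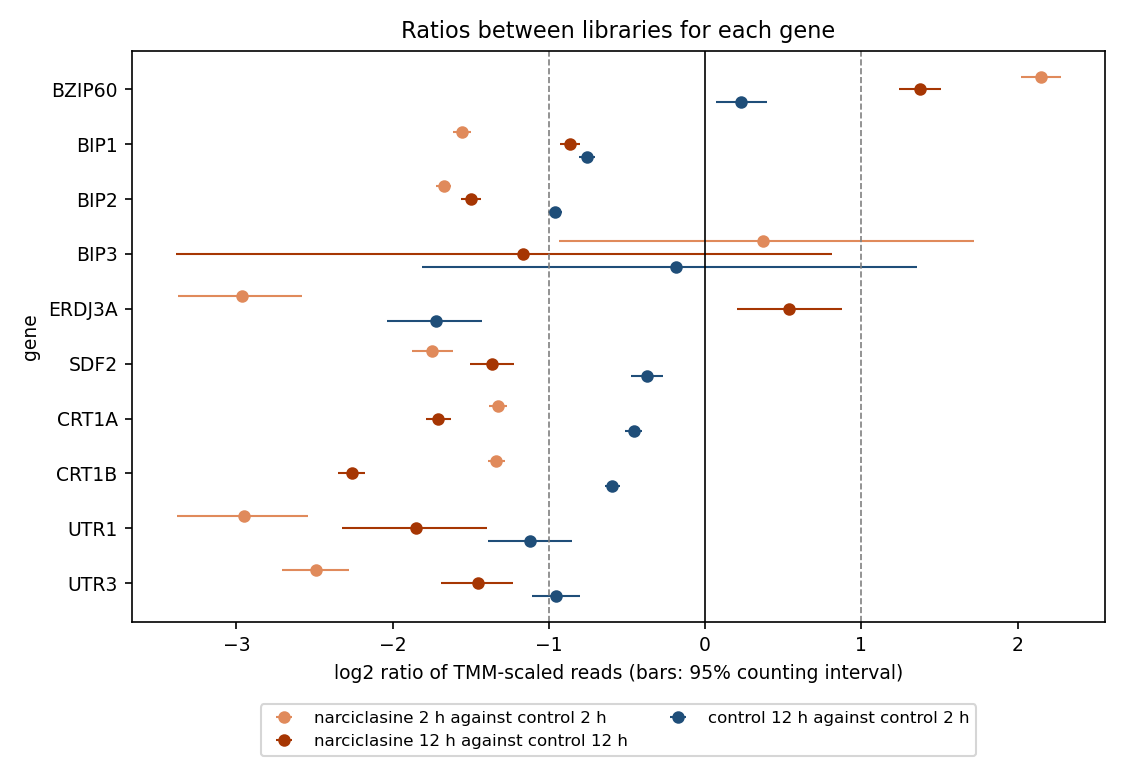
Log2 ratio of TMM-scaled reads for each of the 10 genes in 3 comparisons between libraries, with bars for the 95% counting interval and dashed lines at 2-fold. BZIP60 lies right of the 2-fold line in both narciclasine comparisons, ERDJ3A changes side between 2 h and 12 h, and the bars of BIP3 reach over 0 throughout.

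The controls asked how far the same genes differ between times without narciclasine. In control 12 h against control 2 h, 2 of the 9 genes were called, ERDJ3A and UTR1, both lower. Over all 19366 genes in that comparison, 4.34% were called higher and 1.68% lower. Of the other 7 genes, BIP2, UTR3, BIP1, CRT1B, CRT1A and SDF2 were lower by 1.95-fold to 1.29-fold and BZIP60 was 1.17-fold higher. Control 2 h is the denominator both here and in the 2 h narciclasine comparison, so the ratios share that library. Against control 12 h, narciclasine 2 h still had BZIP60 called higher (3.78-fold, 3.45 to 4.13) and ERDJ3A, SDF2, UTR1 and UTR3 called lower (2.36-fold to 3.56-fold). In that comparison 6.40% of all genes were called higher and 5.84% lower. BIP1, BIP2, CRT1A and CRT1B were then lower by 1.64-fold to 1.82-fold, under the threshold. Narciclasine 12 h against control 2 h had BZIP60 called higher and 8 genes called lower, beside 12.4% and 16.8% of all genes.

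Between the narciclasine libraries, 2 of the 9 genes were called, ERDJ3A 3.43-fold higher at 12 h (2.57 to 4.64) and CRT1B lower. Over all genes 7.99% were called higher and 15.9% lower there. Dividing the 12 h narciclasine ratio by the 2 h one gave a ratio of ratios, called by the same rule with a normal interval on the log scale. It was 11.3 for ERDJ3A (7.98 to 16.1), 2.14 for UTR1 (1.41 to 3.25) and 2.05 for UTR3 (1.66 to 2.54), the 3 genes called. Over all 19279 genes with such a value, 7.96% were called higher and 15.8% lower. For BZIP60 it was 0.585 (0.516 to 0.664) and for CRT1B 0.526 (0.490 to 0.566), neither past the threshold. For BIP2 it was 1.13 (1.07 to 1.19), that is, nearly the same ratio at both times. UTR1 and UTR3 were alike in the narciclasine libraries, at 12 h to 2 h ratios of 0.986 and 1.06. Between the controls these ratios were 0.461 and 0.517. The called ratios of ratios of UTR1 and UTR3 thus come from the difference between the controls.

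**Figure D3:**
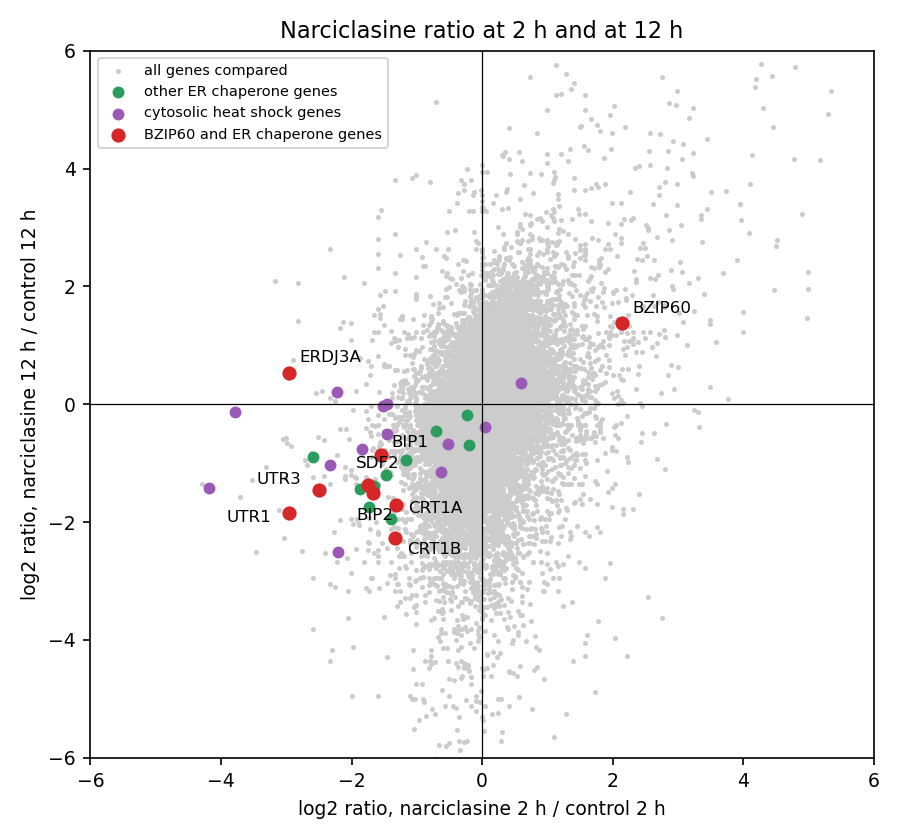
Log2 ratio of narciclasine to control at 12 h (vertical) against that at 2 h (horizontal) for 19304 genes in grey, with 38 genes beyond 6 on either axis left out; the 9 compared genes are red, other ER chaperones green and cytosolic heat shock genes purple. BZIP60 is alone at the upper right among the red points, and ERDJ3A lies at the left above 0.

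Genes that sense ER stress or regulate the response to it were closer to their controls at 2 h. Of 12 sensors and regulators of the unfolded protein response, 0 were called at 2 h and 2 higher and 1 lower at 12 h, with median log2 ratios of 0.04 and 0.31. These counts are near the shares of all genes called, 4.74% higher and 2.06% lower at 2 h and 11.6% and 16.5% at 12 h. IRE1A, a sensor that can splice BZIP60 mRNA, was 1.12-fold higher at 2 h (1.01 to 1.24) and 1.51-fold higher at 12 h (1.38 to 1.64). IRE1B, its paralog, was at ratios of 1.02 (0.914 to 1.14) and 1.27 (1.13 to 1.43). The membrane-bound factors BZIP28 and BZIP17 were at 1.13 and 1.03 at 2 h and at 1.44 and 1.52 at 12 h. NAC103, a NAC factor known as a direct target of BZIP60, had 8, 15, 6 and 115 reads in control 2 h, narciclasine 2 h, control 12 h and narciclasine 12 h. It was therefore high in narciclasine 12 h alone, 15.0-fold above control 12 h (6.67 to 41.6), while at 2 h its ratio was 1.87 (0.743 to 5.08). NAC089, a membrane-bound NAC factor tied to cell death under ER stress, was at 5.06, 4.84, 4.63 and 13.1 RPKM, 2.73-fold higher at 12 h (2.09 to 3.60). BZIP49, a relative of BZIP28, had 7 reads in control 12 h and 0 in narciclasine 12 h. With the 0 set to a floor of 3 reads it would be 2.99-fold lower. The counting interval of its ratio reaches up to 0.542 and so does not exclude a difference under 2-fold.

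Other ER chaperones were mostly lower as well. Of 10 such genes, 7 were called lower at 2 h and 5 at 12 h, with 0 higher at either time and medians of -1.43 and -1.07. Over all genes, 2.06% were called lower and 4.74% higher at 2 h, and 16.5% and 11.6% at 12 h. CNX1, a calnexin, was at 398, 130, 232 and 92.4 RPKM, 3.15-fold lower at 2 h (3.03 to 3.27) and 2.60-fold lower at 12 h (2.48 to 2.72). HSP90.7, the ER form of HSP90 also called SHEPHERD, was 2.62-fold lower at 2 h (2.54 to 2.70) and 3.86-fold lower at 12 h (3.68 to 4.05). ERDJ3B, the J-domain partner of SDF2, was at 170, 47.8, 95.1 and 36.5 RPKM, 3.65-fold (3.40 to 3.92) and 2.69-fold (2.47 to 2.94) lower. Its 2 narciclasine libraries were both below both controls, unlike those of its namesake ERDJ3A. TIN1, a gene known as a BZIP60-dependent target under ER stress, was 6.03-fold lower at 2 h (3.86 to 9.83) and 1.86-fold lower at 12 h (1.17 to 3.00), from 138, 23, 48 and 33 reads. CRT3, the third calreticulin, which folds receptor kinases in Arabidopsis, was 1.15-fold lower at 2 h (1.03 to 1.27) and 1.62-fold lower at 12 h (1.43 to 1.85).

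Enzymes of disulphide formation, 12 genes, had 1 called lower at 2 h and 3 at 12 h, with medians of -0.58 and -0.59, beside 2.06% and 16.5% of all genes called lower at these times. PDIL2-2, a protein disulphide isomerase, was lower at both times (2.35-fold, 2.11 to 2.61, and 3.44-fold, 2.94 to 4.04). PDIL1-1 and PDIL1-3, of the same enzyme family, were lower at 12 h by 2.67-fold (2.54 to 2.81) and 3.42-fold (3.17 to 3.70). Of 12 genes of ER-associated degradation, which returns misfolded proteins to the cytosol, 3 were called lower at 2 h and 0 at 12 h, with medians of -0.60 and -0.34. The 3 were HRD1B, a membrane ubiquitin ligase (3.11-fold, 2.73 to 3.56), and the derlin genes DER2.1 (2.82-fold, 2.47 to 3.22) and DER1 (2.30-fold, 2.05 to 2.60). Of 10 translocon and glycosylation genes that passed the filter, 0 were called at 2 h and 1 lower at 12 h, DAD1, a subunit of oligosaccharyltransferase (2.36-fold, 2.11 to 2.64), with medians of -0.42 and -0.64. That count at 12 h is no higher than the 16.5% of all genes called lower.

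Among relatives of UTR1 and UTR3 the ratios were nearer to 1. Of 4 further UTR family genes, 0 were called at 2 h and 1 at 12 h, UTR7, 2.51-fold lower (1.96 to 3.23), with medians of -0.15 and -0.23. With 4 genes these counts cannot be told from the 2.06% and 16.5% of all genes called lower. UTR2 of this family was at 42.4, 56.8, 48.7 and 48.1 RPKM in the same order of libraries, with ratios of 1.31 (1.20 to 1.42) and 0.956 (0.875 to 1.04). The difference between UTR1 and UTR3 and these relatives was not tested.

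**Figure D4:**
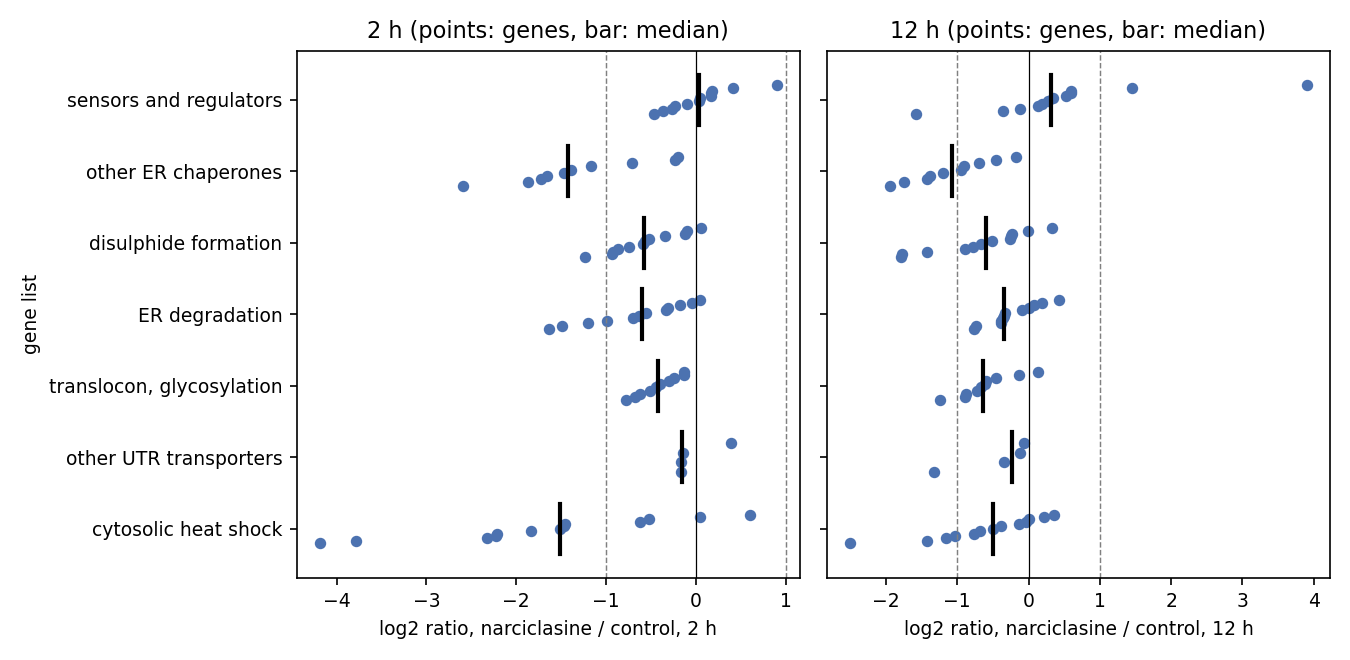
Log2 ratio of narciclasine to control at 2 h (left) and 12 h (right) for the genes of 7 lists. Each point is a gene, black bars are list medians and dashed lines lie at 2-fold. BZIP49 at 12 h, with 0 reads, is drawn at the floor of 3 reads. At 2 h the medians of other ER chaperones and cytosolic heat shock genes lie at -1.43 and -1.51, and the sensors and regulators lie around 0.

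Cytosolic heat shock genes, which answer unfolded proteins outside the ER, were mostly lower at 2 h too. Of 13 that passed the filter, 9 were called lower at 2 h and 3 at 12 h, with medians of -1.51 and -0.50. Beside these counts, 2.06% of all genes were called lower at 2 h and 16.5% at 12 h, so the 12 h count is near that share. HSFB1 was listed at 0 in all 4 libraries. In control 12 h against control 2 h, 5 of the 13 were called lower, with a median of -0.94, beside 1.68% of all genes called lower. HSFA2, a heat shock factor, was at 30.1, 1.70, 6.64 and 2.56 RPKM, 18.21-fold lower at 2 h (12.9 to 26.5) and 2.68-fold lower at 12 h (1.92 to 3.80). HSP90.1, a heat-induced chaperone, was at 51.0, 11.2, 13.7 and 16.4 RPKM, 4.68-fold lower at 2 h (4.20 to 5.23) and 1.16-fold higher at 12 h (1.02 to 1.32). For both genes control 2 h stood above the other 3 libraries. HSP17.8, a small heat shock protein, was 13.8-fold lower at 2 h (8.63 to 23.2) with a ratio of 0.911 at 12 h (0.509 to 1.64), and ROF2, a heat-induced immunophilin, was lower at both times (4.63-fold, 4.10 to 5.23, and 5.67-fold, 4.48 to 7.24). The part of the control 2 h level in the 2 h ratios of the ER folding genes was not tested. With control 12 h as the control, BIP1, BIP2, CRT1A and CRT1B were no longer called at 2 h. ERDJ3A, SDF2, UTR1 and UTR3 were still called lower.

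Likeness of pattern was measured as the distance between profiles over the 4 libraries, each the log2 of TMM-scaled CPM minus its mean, among 6523 coding genes with a symbol and a mean of at least 100 reads. Those nearest to BZIP60 were ABCB4, an auxin transporter (0.33), ABCA7, an ABC transporter (0.34), cwINV6, an enzyme of the cell wall invertase family (0.37), WRKY25, a WRKY factor, and CNGC19, a cyclic nucleotide-gated channel. For BIP2 they were CNX1 (0.29), ERDJ3B (0.33), CRT1A (0.36), PDIL2-2 (0.37) and P58IPK, an ER J-domain protein (0.39). All 5 are among the 10 genes or in the lists of ER folding genes. For ERDJ3A they were HSP90.1 (0.88), EBP, an ethylene response factor (0.97), the cytosolic HSP70 gene AT3G12580 (1.11), HRD1B (1.14) and AFP1, a protein that binds an abscisic acid factor (1.15). These distances were over 2 times those of the 5 genes nearest to BZIP60 or BIP2. Against BIP2 the other folding genes lay at 0.65 for BIP1, 0.62 for CRT1B, 0.70 for SDF2, 0.73 for UTR3, 0.99 for UTR1 and 1.93 for ERDJ3A, and BZIP60 at 3.46.

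**Figure D5:**
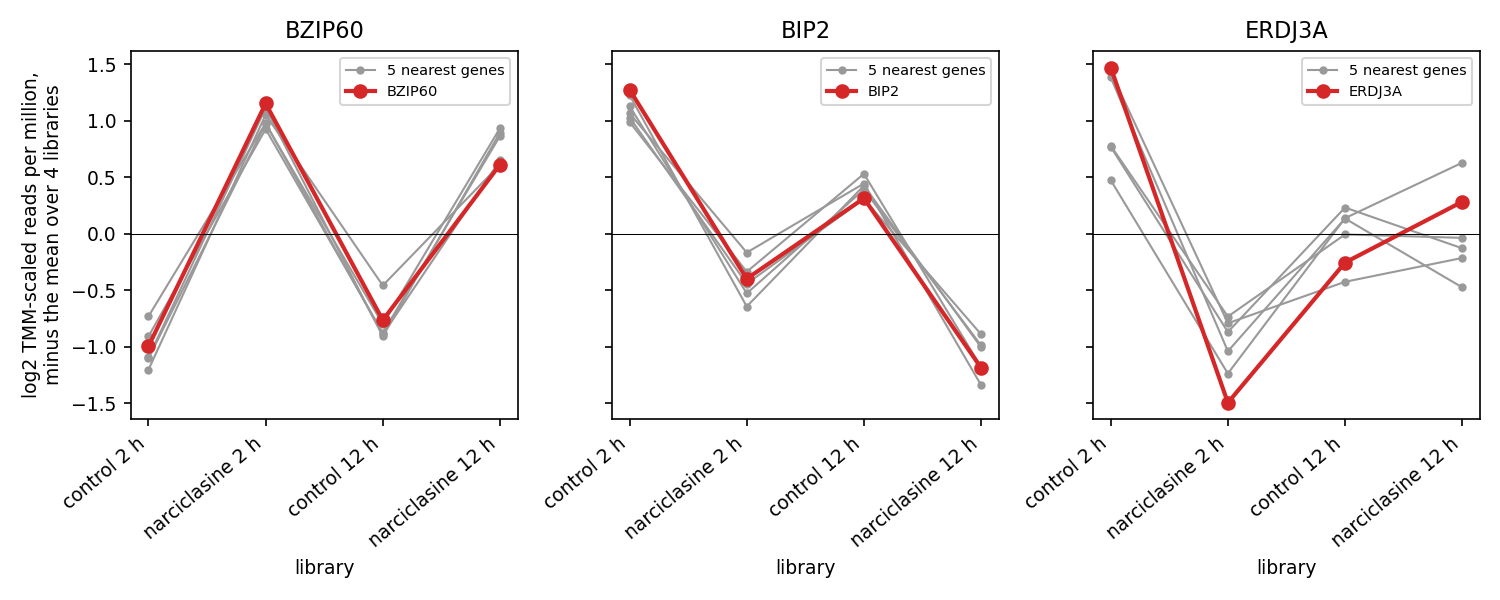
Profiles over the 4 libraries (log2 of TMM-scaled CPM minus the mean) of BZIP60, BIP2 and ERDJ3A in red and of the 5 nearest genes of each in grey. BZIP60 has its 2 peaks in the narciclasine libraries, BIP2 has its low points there, and ERDJ3A has a single low point in narciclasine 2 h.

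Motifs were searched on both strands of the same window, 250 bases before to 50 after the start, in 27443 genes. ERSE was in 3 of the 10 windows (BIP3, with 2 matches, CRT1A and UTR3) and in 0.849% of all windows. The UPRE core was in BIP2 and CRT1A and in 1.51% of all windows, and ERSE-II in BIP2 and in 0.0692%. The G-box, which can overlap ERSE as in BIP3 and UTR3, was in 6 of the 10 (BZIP60, BIP3, SDF2, CRT1A, UTR1 and UTR3) and in 7.68% of all windows. Among the 10 other ER chaperone genes, 4 windows held ERSE, 4 the UPRE core and 4 the G-box. ERSE was also in 4 of 12 genes of ER-associated degradation and 3 of 12 disulphide genes. It was in 2 of 11 translocon and glycosylation genes, 1 of 12 sensors and regulators and 0 of 14 cytosolic heat shock genes. The G-box was in 4 of 14 cytosolic heat shock genes, 3 of 12 sensors and regulators and 3 of 12 disulphide genes. It was in 1 of 12 genes of ER-associated degradation and 1 of 11 translocon and glycosylation genes. A heat shock element (GAA and TTC units in alternation, 3 in a row, each followed by any 2 bases) was in 0 of the 10, in 4 of 14 cytosolic heat shock genes and in 0.481% of all windows. BIP1, ERDJ3A and CRT1B held none of these motifs in this window. The window was set by the annotated start of each gene, and other placements were not searched. A match is a description of the letters and not evidence of binding.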

How the data were processed

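Total RNA of the root tips was made into 1 Illumina library per group, per the labels' protocols. The authors deposited RPKM values, per the file headers. The build mm8, edgeR and Bowtie 0.12.2 are named in the submitters' processing notes, and mm8 is a mouse build, so the build behind the values is unclear. Of 33602 locus codes, 32835 matched TAIR10.1, which was used for symbols, windows and gene positions. How reads were counted, and whether strand was used, is not given in the sources used here.

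Library sizes and whole reads were recovered from the RPKM values (tolerance 0.0001 reads) for 22816 of 22816 genes above 0 in at least 2 libraries, up to a common factor per gene. The 1580 genes above 0 in a single library could not be recovered. Recovered reads made up 97.5% to 98.0% of each library. Reads were scaled by TMM (30% and 5% trimmed). With 1 library per group no count model was run, nor an additive fit of narciclasine and time over the 4 libraries, whose error would rest on 1 degree of freedom. Ratios carry an exact 95% Clopper-Pearson interval. Sequenced reads are not independent molecules. Recovery and calling were tested on simulated data.

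The 10 genes and the 9 other lists were chosen with earlier results of these data known. Named from each list were up to 4 called genes whose interval lay farthest from 1, plus set relatives of the 10 genes. PLT1, SCR, CASP1, FEZ and MYB36 were named as examples after their values were seen, and LHCB2.1 and HSFB1 because they were at 0. Some symbols are of the lists, not of the annotation. Alternatives were 3 other scalings, thresholds of 1.5-fold and 4-fold, log2(RPKM + 1), summed paralogs, no filter or 5 CPM, and other controls. Scripts ran in Python 3.11.15 (scipy 1.17.1, pandas 2.3.3, numpy 2.4.6; figures with matplotlib 3.10.9).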

Additional observations from a re-analysis of the deposited data

Results flagged for a closer look

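Among the 10 genes and the list genes chosen by the naming rule, 3 had narciclasine ratios whose intervals lay wholly on opposite sides of 1 at the 2 times. Genes of the lists outside that rule, such as MYB36 with 1.74 at 2 h and 0.827 at 12 h, were not considered. With 1 library per group none of these differences was tested. ERDJ3A had a ratio of 0.128 at 2 h and 1.45 at 12 h, a ratio of ratios of 11.3 (7.98 to 16.1). HSP90.1, the gene nearest to ERDJ3A in pattern, had 0.214 and 1.16, a ratio of ratios of 5.42 (4.58 to 6.40). EXPA7, a root hair expansin among the root tip markers, went the other way with 1.31 and 0.392, a ratio of ratios of 0.299 (0.271 to 0.330). Beside the first pair stand the control levels, which for ERDJ3A were 16.0 RPKM at 2 h and 4.71 at 12 h and for HSP90.1 51.0 and 13.7. By definition the ratio of ratios equals the 12 h to 2 h ratio with narciclasine divided by that between the controls. ERDJ3A was 3.43-fold higher at 12 h with narciclasine and 3.31-fold lower in the controls. HSP90.1 was 3.63-fold lower at 12 h in the controls, so the control difference is a factor in both values. Against control 2 h, ERDJ3A in narciclasine 12 h was 2.28-fold lower (1.93 to 2.69). What the control difference came from was not tested.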

How the results depend on the processing

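No paired analysis was possible because the groups compared held 1 library each and so shared fewer than 2 replicate numbers. A fit of narciclasine with time as a block was not run. Other scalings, filters, log2(RPKM + 1) and summed paralogs left every count of called genes among the 10 within 1.5 times of the value reported. A 4-fold threshold gave 4 of 9 at 2 h (1 higher, 3 lower; 9 reported), 1 at 12 h (7 reported), 0 between the controls and 0 between the narciclasine libraries (2 reported for each), and 1 for the ratio of ratios (3 reported). A 1.5-fold threshold gave 6 between the controls, 4 between the narciclasine libraries and 6 for the ratio of ratios. With control 12 h as the control, 5 genes were called at 2 h. Under the 8 alternatives that recompute the ratio itself (scalings, log2(RPKM + 1), summed paralogs and other controls), 147 of 147 values of called genes that passed the filter kept their direction and 143 stayed called. The exceptions were BIP1, BIP2, CRT1A and CRT1B at 2 h against control 12 h. ERDJ3A at 12 h was not called as reported and is outside this count. It went from 1.45-fold higher to 2.28-fold lower (1.93 to 2.69) with control 2 h as the control. No scaling moved the median log2 ratio of all genes by more than 0.048, so the scalings could not have reversed a called gene. Depth limits BIP3, at 4 to 13 reads. The length behind the RPKM was 79.3% to 98.9% of the annotated exonic length of the 10 genes, so levels compared between genes carry that uncertainty.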
